A study of Homo sapiens with 83 samples.

Results

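The genes described here are those whose transcript level moved in opposite directions in 2 neuroblastoma cell lines when N-MYC was activated. They were selected on the measured change itself. A gene was taken when its mean TPM (a transcript level corrected for transcript length and library total) was at least 1 in SHEP and in SKNAS, and its mean log2(TPM + 1) in MYC-ON minus that in MYC-OFF was at least 0.5 in one line and at most -0.5 in the other. TPM had been rescaled by median-of-ratios within each line first. Of 12306 genes at this level in both lines, 99 met the rule. In 42 of them the level was higher in SHEP MYC-ON and lower in SKNAS MYC-ON, and in 57 it was lower in SHEP MYC-ON and higher in SKNAS MYC-ON. BHLHE40 and BHLHE41 were left out by the rule and neither would have met it, with changes of -0.43 and 1.121 in SHEP and 1.37 and 2.51 in SKNAS. Because the change chose the members, its size is a description and carries no test.

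Both lines overexpress N-MYC-ER, N-MYC fused to a part of the estrogen receptor that keeps it inactive until 4-hydroxytamoxifen (4OHT) is added. MYC-OFF cells received ethanol and MYC-ON cells received 4OHT, so 4OHT itself is part of every MYC-ON group. All cells, in both conditions, then received dexamethasone, a glucocorticoid that sets the circadian clock, and circadian time (CT) is the number of hours after it. Polyadenylated RNA was sequenced from 28 SHEP MYC-OFF and 28 SHEP MYC-ON libraries (2 series, CT24 to CT76) and from 14 SKNAS MYC-OFF (CT24 to CT76) and 13 SKNAS MYC-ON libraries (1 series, CT24 to CT72), with a collection every 4 h. Each line stands for 1 tumour, and 1 series of SKNAS was used here (another was not analysed), so a spread over its libraries is a spread over time points. In bulk RNA, fewer cells with a transcript and less of it per cell cannot be told apart.

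The adrenergic marker PHOX2A averaged 232 TPM in SKNAS MYC-OFF and 0.0015 TPM in SHEP MYC-OFF. Of 10 mesenchymal markers, 9 or 10 averaged at least 1 TPM in every group. CDH1 averaged at most 0.217 TPM and the endothelial markers at most 0.148 TPM, while the epithelial keratins KRT8 and KRT18 averaged 137 to 949 TPM. EPCAM, also epithelial, averaged 0.225 and 0.333 TPM in SHEP MYC-OFF and MYC-ON, and 0.125 and 1.16 TPM in SKNAS. Of the leukocyte markers only PTPRC was above 1 TPM, at 80.4 TPM in SKNAS MYC-OFF and 21.5 TPM in SKNAS MYC-ON. The SKNAS libraries stood apart from one another. The median over genes of log2(TPM + 1) ran from 3.93 to 4.17 in SHEP, but from 2.97 to 4.38 in SKNAS MYC-OFF and from 2.76 to 4.25 in SKNAS MYC-ON. It was at least 3.8 in 10 of 14 SKNAS MYC-OFF libraries and in 3 of 13 SKNAS MYC-ON libraries. Ribosomal protein transcripts made up 24.7% to 29.3% of TPM in the 7 SKNAS libraries with a median below 3.3, and 14.04% to 20.8% in the 13 with a median of at least 3.8. Each member's change in SKNAS was therefore also computed with the library median as a covariate and in the 13 high-median libraries alone.

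N-MYC binds DNA as a dimer with MAX, preferentially at the E-box CACGTG, and is best known for raising genes of ribosome production and metabolism. It also lowers many transcripts, in part by acting through other factors such as MIZ1 at their promoters. SHEP is a mesenchymal-like line, and neuroblastoma lines differ in which neural crest programs they keep.

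The promoters shown here are the 2 among the 20 members described in full that hold CACGTG near RefSeq's start (CACGTG in capitals), and a pair without it, 1 per class, whose RefSeq start is also the start of the Gencode gene. The motif is its own reverse complement, so 1 search covers both strands. Each stretch is the 100 bases before the start on GRCh38.p14, written 5′ to 3′ on the gene's strand: RAP1GAP2 at chr17:2975561-2975660 (+), TBC1D8 at chr2:101151383-101151482 (-), TRIM54 at chr2:27282329-27282428 (+) and NES at chr1:156677408-156677507 (-).
RAP1GAP2: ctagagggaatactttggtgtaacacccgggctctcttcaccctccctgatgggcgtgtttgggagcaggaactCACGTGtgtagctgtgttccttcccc
TBC1D8: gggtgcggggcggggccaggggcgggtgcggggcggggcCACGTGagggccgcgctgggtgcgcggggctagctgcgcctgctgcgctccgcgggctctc
TRIM54: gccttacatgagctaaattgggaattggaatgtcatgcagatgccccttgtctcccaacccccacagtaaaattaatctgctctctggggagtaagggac
NES: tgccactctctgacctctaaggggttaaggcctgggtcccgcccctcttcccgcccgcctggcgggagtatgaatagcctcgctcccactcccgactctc
CACGTG begins 26 bases before the start in RAP1GAP2 and 61 bases before it in TBC1D8. In both of these genes the RefSeq start lies inside the longer Gencode gene, 219956 and 101484 bases from its 5′ end. In windows from 250 bases before to 50 after the start, 10.2% of the 9515 tested genes with a RefSeq promoter held CACGTG, and 7.26% of all 35116 promoters in the table did. A promoter was found for 33 of the 42 members higher in SHEP, of which 4 held the motif, and for 36 of the 57 lower in SHEP, of which 9 did. Promoters were found for under 80% of each class, and also of all tested genes (9515 of 12306). The shares of 12.1% and 25% are therefore incomplete and carry no test, and nothing is read from them.

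**Figure D1:**
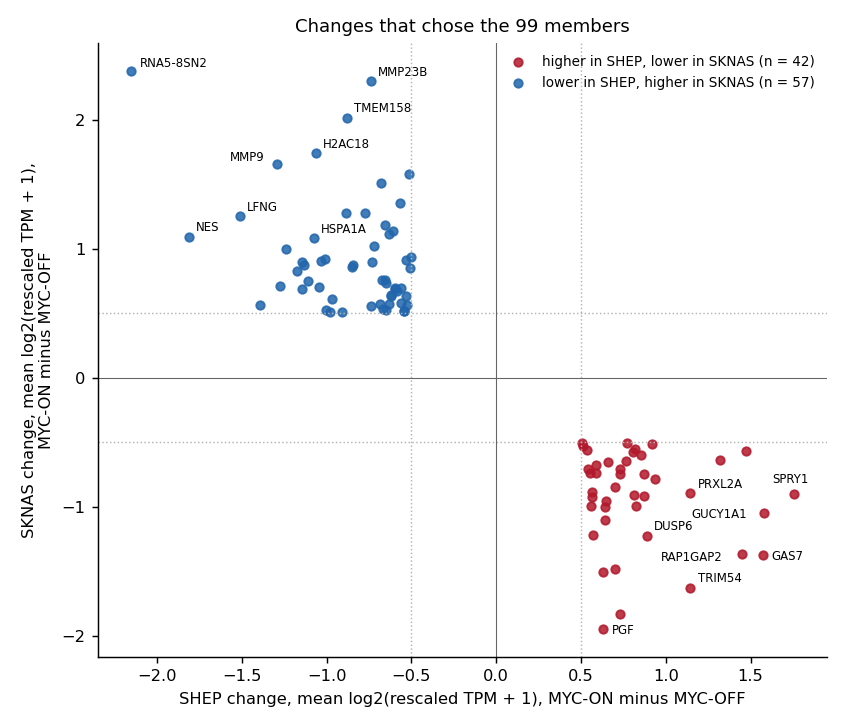
Change in mean log2(rescaled TPM + 1), MYC-ON minus MYC-OFF, in SHEP (horizontal axis) and SKNAS (vertical axis) for the 99 members. Red points are the 42 genes higher in SHEP and lower in SKNAS, blue points the 57 with the reverse, and dotted lines mark the threshold of 0.5 either way that chose them.

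Among the genes higher in SHEP MYC-ON, the changes ran from 0.50 to 1.76 in SHEP (median 0.73) and from -1.95 to -0.51 in SKNAS (median -0.87). Among the genes lower in SHEP MYC-ON, they ran from -2.15 to -0.50 in SHEP (median -0.73) and from 0.51 to 2.38 in SKNAS (median 0.82). Over all 12306 genes the median change was 0.015 in SHEP and 0.048 in SKNAS. Only 4 and 6 members, respectively, changed by at least 1 in both lines. On TPM as deposited the median of all genes in SKNAS was -0.29, and the split turned from 42 and 57 to 79 and 28. Of the 99 members, 11 of those higher in SHEP and 8 of those lower in SHEP had a mean under 1 TPM in one group, GAS7, TRIM54, SPRY1, MMP9 and NES among them, so they entered partly through the groups where they were high.

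Nearest the threshold on the inside were AC211429.1 (0.50 in SHEP and -0.51 in SKNAS) and CRACD (0.77 and -0.51), and, in the other class, ANTKMT (-0.50 and 0.94) and CCDC9 (-0.51 and 0.85). Just outside lay STX1A (0.60 in SHEP and -0.499 in SKNAS), HDAC9 (0.49 and -0.58), PTCHD3P1 (-0.498 and 0.97) and TEN1 (-0.496 and 0.63).

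The values below are rescaled TPM, given as the lowest, the median and the highest library of each group. The rescaling was done within each line, so these levels compare conditions within a line.

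Among the genes higher in SHEP and lower in SKNAS, RAP1GAP2, SPRY1, DUSP6 and PTPRR are known to damp growth factor or small GTPase signalling. They were grouped by role after their values were seen. Others of the class act the other way: DOCK4 activates Rac and Rap1, and FGF5 and PGF are growth factor ligands. GAS7 codes for an F-BAR protein of neurons that binds actin (ENSG00000007237, chromosome 17, 9910606 to 10198606, - strand). It was at 0, 0.046 and 0.40 in SHEP MYC-OFF and at 0.60, 2.31 and 3.76 in SHEP MYC-ON. In SKNAS it was at 6.37, 12.9 and 19 in MYC-OFF and at 2.54, 3.62 and 9.27 in MYC-ON. The SHEP groups did not overlap and the SKNAS groups did, GAS7 was listed at 0 in 5 of 28 SHEP MYC-OFF libraries, and its changes were 1.57 and -1.37.

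RAP1GAP2 (ENSG00000132359, chromosome 17, 2755705 to 3037741, + strand) codes for a protein that switches off the GTPase Rap1. Its level was 10.3, 14.1 and 23.7 in SHEP MYC-OFF and 27.2, 39.95 and 75.5 in SHEP MYC-ON. It was 5.08, 17.4 and 21.6 in SKNAS MYC-OFF against 1.96, 5.33 and 10.0 in SKNAS MYC-ON. Every SHEP MYC-ON library lay above every SHEP MYC-OFF library, and the SKNAS groups shared the stretch from 5.08 to 10.0.

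SPRY1 (ENSG00000164056, chromosome 4, 123396795 to 123403760, + strand), a Sprouty protein that feeds back on receptor tyrosine kinases, had the largest SHEP change of its class, 1.76, against -0.90 in SKNAS. It was at 0, 0.27 and 0.73 in SHEP MYC-OFF and at 1.84, 3.36 and 5.80 in SHEP MYC-ON. In SKNAS it was at 9.74, 33.7 and 44.4 and then at 7.34, 13.5 and 36.7, and those groups overlapped over most of their range. The SKNAS change was -0.36 with the library median as covariate and -0.43 in the high-median libraries.

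DUSP6 (ENSG00000139318, chromosome 12, 89347235 to 89352501, - strand), the phosphatase that inactivates ERK, was at 2.96, 6.5 and 12.1 in SHEP MYC-OFF and at 5.87, 12.9 and 24.8 in SHEP MYC-ON. It was at 20.4, 43.2 and 58.7 in SKNAS MYC-OFF and at 10.6, 15.9 and 31.3 in SKNAS MYC-ON. The groups overlapped in both lines, and the SHEP change was 0.58 in series 1 and 1.2 in series 2. PTPRR, a tyrosine phosphatase that also acts on ERK, changed by 0.70 in SHEP and -1.49 in SKNAS. In SKNAS it was at 17.9, 21 and 23.9 in MYC-OFF and at 3.99, 6.81 and 11.1 in MYC-ON, with no overlap, and it remained at -1.15 in the high-median libraries. Of 39 tested genes with DUSP or PTPR names, DUSP6 and PTPRR were the 2 members, and the median changes of that list were -0.09 in SHEP and -0.23 in SKNAS.

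TRIM54 (ENSG00000138100, chromosome 2, 27282429 to 27307439, + strand), a microtubule-binding ubiquitin ligase of muscle, was at 0.10, 0.48 and 1.13 in SHEP MYC-OFF and at 1.35, 2.37 and 3.95 in SHEP MYC-ON. It was at 6.35, 10.6 and 22.4 in SKNAS MYC-OFF and at 1.52, 3.49 and 4.75 in SKNAS MYC-ON. The groups were separate in both lines, with changes of 1.15 and -1.63. PRXL2A (ENSG00000122378, chromosome 10, 80407829 to 80437115, + strand), a peroxiredoxin-like redox protein, also separated in both, from 18.4, 24.4 and 28.7 to 40.9, 54.2 and 75.2 in SHEP and from 114, 160 and 273 to 70.0, 89.2 and 111 in SKNAS.

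PPARG, the nuclear receptor of fat cell differentiation, was the other member of this class with no overlap in either line. It was at 25.8, 30.6 and 34.3 in SHEP MYC-OFF and at 38.07, 45.04 and 66.6 in SHEP MYC-ON, against 21.7, 27.2 and 36 and then 8.41, 14 and 17.9 in SKNAS. On the scale shared by both lines, PPARG in SKNAS minus SHEP was 0.25 in MYC-OFF and -1.40 in MYC-ON.

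GUCY1A1 (ENSG00000164116, chromosome 4, 155666726 to 155737059, + strand), a subunit of the nitric oxide receptor guanylate cyclase, had SHEP medians of 2.19 and 8.94, with no overlap, and its SKNAS medians were 25.2 and 10.1. ARG2 (ENSG00000081181, chromosome 14, 67619920 to 67651708, + strand), the mitochondrial arginase, had SHEP medians of 4.05 and 8.15 and SKNAS medians of 4.49 and 1.89, and here it was the SKNAS groups that did not overlap. DOCK4 (ENSG00000128512, chromosome 7, 111726110 to 112206407, - strand), an activator of Rac and Rap1, and TBC1D8 (ENSG00000204634, chromosome 2, 101007228 to 101252866, - strand), with a domain typical of Rab GTPase-activating proteins, overlapped between conditions in both lines. Their SKNAS changes of -0.92 and -0.99 came to -0.19 and -0.31 in the high-median libraries.

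PGF, FGF5, HAND2, SYT1 and BTG2 are further members higher in SHEP and lower in SKNAS whose roles are known. PGF, a ligand of VEGF receptor 1, changed by 0.63 in SHEP and had the largest SKNAS change of its class, -1.95. It was at 17.1, 28 and 70.8 in SKNAS MYC-OFF and at 2.8, 7.76 and 11.9 in SKNAS MYC-ON. FGF5, a fibroblast growth factor, changed by 0.64 and -1.10, and the latter was -0.12 in the high-median libraries. HAND2, a bHLH factor of sympathetic neuron identity, was at 10.9, 14.9 and 21.3 in SHEP MYC-OFF, at 18.6, 27 and 34.7 in SHEP MYC-ON, at 102, 134 and 166 in SKNAS MYC-OFF and at 56.8, 86.8 and 112 in SKNAS MYC-ON. It was the only member on the lists of bHLH factors (25 tested) and adrenergic genes (5 tested, median changes 0.16 in SHEP and -1.03 in SKNAS). SYT1, the calcium sensor of synaptic vesicles, changed by 0.64 and -1.0, and BTG2, an antiproliferative target of p53, by 0.87 and -0.75. BTG2 was the 1 member among 23 tested p53 targets.

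**Figure D2:**
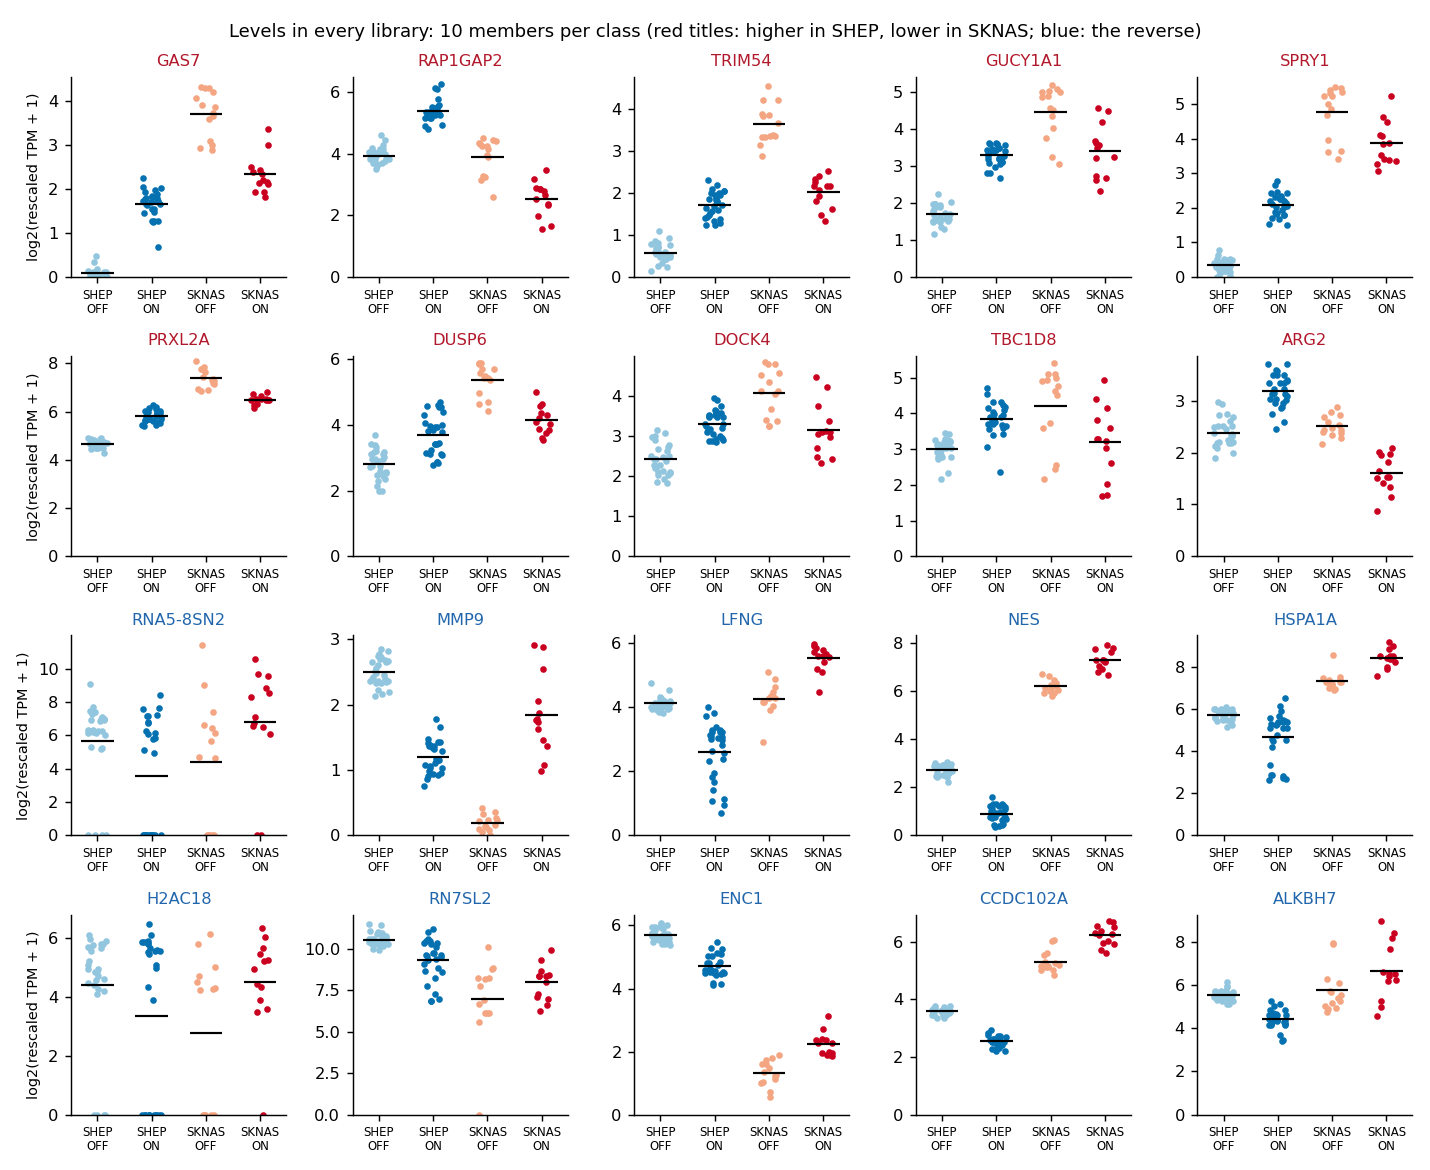
Level of the 10 members per class with the largest smaller-of-the-two changes, as log2(rescaled TPM + 1), in each library (points) of the 4 groups, with the group mean as a bar. TRIM54 and PRXL2A (red titles) and MMP9 (blue title) are separate between conditions in both lines, while RNA5-8SN2 and H2AC18 have libraries listed at 0 in all 4 groups.

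Among the genes lower in SHEP and higher in SKNAS, the leading genes included MMP9 (cell surroundings), LFNG (Notch signalling), and NES and ENC1 (cytoskeleton). These roles were assigned after the values were seen and cover only part of the leading genes. MMP9 (ENSG00000100985, chromosome 20, 46008908 to 46016561, + strand), a gelatinase, was at 3.37, 4.54 and 6.19 in SHEP MYC-OFF and at 0.69, 1.24 and 2.43 in SHEP MYC-ON. It was at 0, 0.14 and 0.34 in SKNAS MYC-OFF and at 0.99, 2.39 and 6.52 in SKNAS MYC-ON. The groups were separate in both lines, with changes of -1.29 and 1.65.

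NES (ENSG00000132688, chromosome 1, 156668763 to 156677407, - strand), nestin, the intermediate filament of neural progenitors, went from 3.69, 5.73 and 7.30 to 0.27, 0.88 and 2.04 in SHEP. In SKNAS it was at 54.9, 71.5 and 103 in MYC-OFF and at 102, 154 and 242 in MYC-ON. The SHEP groups did not overlap, the SKNAS groups touched only near 102, and the changes were -1.81 and 1.09.

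LFNG (ENSG00000106003, chromosome 7, 2512529 to 2529177, + strand) codes for a Fringe sugar transferase that modifies Notch receptors. It was at 13, 16.1 and 26 in SHEP MYC-OFF and at 0.64, 6.86 and 15 in SHEP MYC-ON, and at 6.46, 18.3 and 33.2 in SKNAS MYC-OFF and 21, 47.2 and 61.2 in SKNAS MYC-ON. It was the 1 member among 33 tested genes of the WNT, Notch and Hippo list, whose median changes were -0.27 in SHEP and -0.65 in SKNAS. The changes of LFNG were -1.51 and 1.25, and the groups overlapped in both lines although all 28 SHEP pairs taken at the same CT were lower and all 13 SKNAS pairs higher.

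HSPA1A (ENSG00000204389, chromosome 6, 31815543 to 31817946, + strand), the inducible HSP70 chaperone, was at 34.3, 55.5 and 67.7 in SHEP MYC-OFF and at 5.11, 33.9 and 92.7 in SHEP MYC-ON. At CT24 it was at 36.8 and 47.3 in the SHEP MYC-ON series (1, then 2) against 37.3 and 39.8 in MYC-OFF. In series 1 the MYC-ON level was 92.7 at CT52 and 69.6 at CT56, against 45.01 and 60.33 in MYC-OFF. In series 2 it was 41.55 and 23.05 at those times, against 46.12 and 62.55. By CT76 HSPA1A was at 6.11 and 6.38 in the SHEP MYC-ON series against 55.7 and 59.0 in MYC-OFF. In SKNAS it was at 121, 156 and 380 in MYC-OFF and 188, 344 and 577 in MYC-ON. Its neighbour HSPA1B, 9792 bases away and nearly identical in its coding sequence, changed by -0.63 and 1.11, and reads may be split between both. SERPINH1, the collagen chaperone HSP47, was at 221, 263 and 304 and then 103, 118 and 179 in SHEP, with no overlap, and at 198, 338 and 456 and then 406, 614 and 752 in SKNAS. SERPINH1 kept a SKNAS change of 0.83 in the high-median libraries, and HSPA1A kept 0.94.

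ENC1 (ENSG00000171617, chromosome 5, 74627406 to 74641424, - strand), an actin-binding kelch protein of the nervous system, was at 40.4, 51.1 and 66.1 and then 16.4, 23.0 and 43.1 in SHEP, and at 0.46, 1.46 and 2.69 and then 2.63, 3.79 and 7.77 in SKNAS. The conditions overlapped at the edges in both lines. CCDC102A (ENSG00000135736, chromosome 16, 57512181 to 57536571, - strand) had SHEP medians of 11.1 and 4.84, without overlap, and SKNAS medians of 35.2 and 77.3. ALKBH7 (ENSG00000125652, chromosome 19, 6372794 to 6375250, + strand), a mitochondrial dioxygenase, had SHEP medians of 45.9 and 20.01 and SKNAS medians of 43.8 and 90.8. Its SKNAS change was 0.90 over all libraries, 0.08 with the covariate and -0.40 in the high-median libraries.

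CERK, the ceramide kinase, was, narrowly in SKNAS, the only other member of this class besides MMP9 with no overlap in either line, at 24.3, 27.6 and 35.9 and then 7.77, 13.3 and 21.1 in SHEP and at 5.38, 7.98 and 10.7 and then 10.7, 12.9 and 15.9 in SKNAS. TMEM158, a membrane protein first described as induced by RAS, changed by -0.88 and 2.01, from a median of 1.72 to 10.1 in SKNAS. The other extracellular protease MMP23B changed by -0.74 and 2.29. MMP9, MMP23B and SERPINH1 were the 3 members among 36 tested genes with ADAM, MMP or SERPIN names, and the medians of that family were -0.67 in SHEP and -0.71 in SKNAS. ITGB4, an integrin of hemidesmosomes, changed by -1.28 and 0.71, and SEMA3F, a secreted guidance cue, by -0.74 and 0.55. HMGA2, a chromatin protein of embryonic and tumour cells, changed by -0.53 and 0.63, CBX8, a Polycomb protein, by -0.53 and 0.91, and SCX, a bHLH factor of tendons that was not on the bHLH list, by -0.77 and 1.28.

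ISG15, a ubiquitin-like protein induced by interferon, and PSMB9, an immunoproteasome subunit, were the 2 members among 30 tested interferon genes. ISG15 changed by -0.68 in SHEP and 0.57 in SKNAS, and the latter was -0.28 with the covariate and -0.43 in the high-median libraries. PSMB9 changed by -0.62 and 0.63, with 0.08 and 0.10 in those views. ALDOC, a glycolytic aldolase and the 1 member of 26 hypoxia and glycolysis genes tested, changed by -0.85 and 0.86 and kept 0.72 in the high-median libraries. CRELD2, a gene of endoplasmic reticulum stress, changed by -1.0 and 0.52 and was at -0.05 in the high-median libraries.

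Some members were RNAs that a polyadenylated library captures poorly or that have near-identical copies, and their values are uncertain. RNA5-8SN2 (ENSG00000278233, chromosome 21, 8212572 to 8212724, + strand), a copy of 5.8S ribosomal RNA, had the largest changes of all members, -2.15 and 2.38. It was listed at 0 in 4 of 28, 13 of 28, 5 of 14 and 2 of 13 libraries (MYC-OFF then MYC-ON, SHEP before SKNAS), reached 2718 in a SKNAS MYC-OFF library, and changed by -1.79 in the high-median SKNAS libraries. H2AC18 (ENSG00000203812), a histone H2A gene with a near-identical copy, was listed at 0 in 4, 11, 6 and 1 libraries of those groups, and its SHEP medians of 29.3 and 31.9 did not follow the change of -1.06 in the mean. RN7SL2 (ENSG00000274012, chromosome 14, 49862550 to 49862849, - strand) and RN7SL3, copies of the 7SL RNA of the signal recognition particle that lie 8636 bases apart, changed by -1.24 and -0.60 in SHEP, where series 1 gave -0.44 and -0.07 and series 2 gave -2.04 and -1.13. H2BC18 and H2BC19P, 30668 bases apart, and the pseudogenes LSM12P1 and CKS1BP1 and readthrough genes BCL2L2-PABPN1 and ABCF2-H2BE1 belong to the same group of uncertain values. In all, 8 neighbouring pairs of members lay within 1 Mb of each other, 7 of the same class, including TMEM102 and FGF11, 594 bases apart on chromosome 17 and both lower in SHEP and higher in SKNAS.

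**Figure D3:**
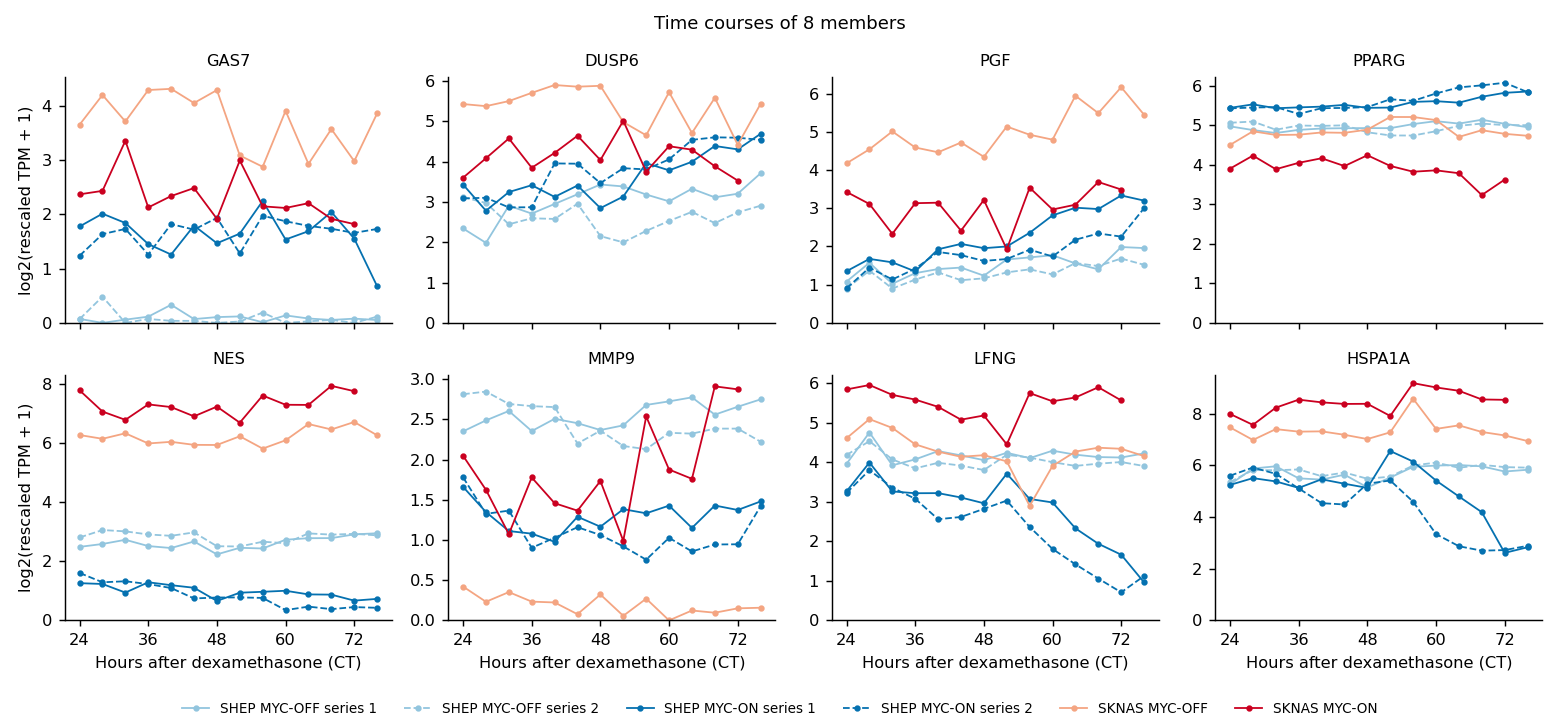
Level of 8 members, as log2(rescaled TPM + 1), against hours after dexamethasone, with a line per series (SHEP series 1 solid, series 2 dashed, and 1 SKNAS series per condition). The SHEP MYC-ON lines of DUSP6 and PGF rose and those of LFNG and HSPA1A fell over the time course, while the CT24 libraries of GAS7, MMP9 and NES already lay on the side of their group.

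In SHEP, the direction was shared by both series in all 42 members higher in MYC-ON and in 56 of 57 lower in MYC-ON, and a change of at least 0.5 was reached in both series by 30 and 38. Taken at the same CT, MYC-ON was on the same side in all 28 SHEP pairs for 22 and 24 members (29.3% of all tested genes in either direction) and in all 13 SKNAS pairs for 15 and 21 (16.4%). Pairs that all moved one way in SHEP and all the other way in SKNAS were found for 22 members and for 0.228% of all tested genes, 28 in number. All MYC-ON libraries lay outside the range of MYC-OFF in SHEP for 10 and 8 members, where 13.8% of all tested genes were separate in either direction, and in SKNAS for 8 and 7, where 6.75% were. These separations restate the contrast that chose the members, and nothing is read from them. TRIM54, PRXL2A and PPARG in one class and MMP9 and CERK in the other were separate in both lines.

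The SKNAS change depended on the library median for part of the members. Of the genes higher in SHEP and lower in SKNAS, 35 of 42 (83.3%) fitted higher in SKNAS libraries with a higher median, as did 12 of 57 (21.1%) of the genes with the reverse change and 52.7% of all tested genes. With the median as a covariate 38 and 46 members kept the direction of the SKNAS change, and 23 and 31 kept a size of 0.5. In the high-median libraries, of which only 3 were MYC-ON, 35 and 36 kept the direction and 22 and 25 the size. A size of at least 0.5 in both of these views and in both SHEP series was kept by 17 members of each class. They were GAS7, RAP1GAP2, TRIM54, PRXL2A, DUSP6, ARG2, PDZD7, BTG2, PPM1E, PTPRR, HAND2, PPARG, TRIB2, PGF, FAM107B, KLHL13 and ANKS1B on one side. On the other side they were MMP9, LFNG, NES, HSPA1A, ENC1, CCDC102A, SIGIRR, TMEM158, SERPINH1, ALDOC, MMP23B, SH2D4A, CERK, APOL3, TMEM102, FGF11 and EPS8L1. The sign turned in both views in AC090971.2, BCL2L2-PABPN1, ARSJ and ABCF2-H2BE1, and in CHMP1B-AS1, DPP7, NUDT14, ZFAND2B, TYMP, AC087292.1, ISG15, TMEM265, WDR13, SERF2 and AL359091.4. What part the make-up of the SKNAS libraries has in these changes was not tested beyond these views.

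**Figure D4:**
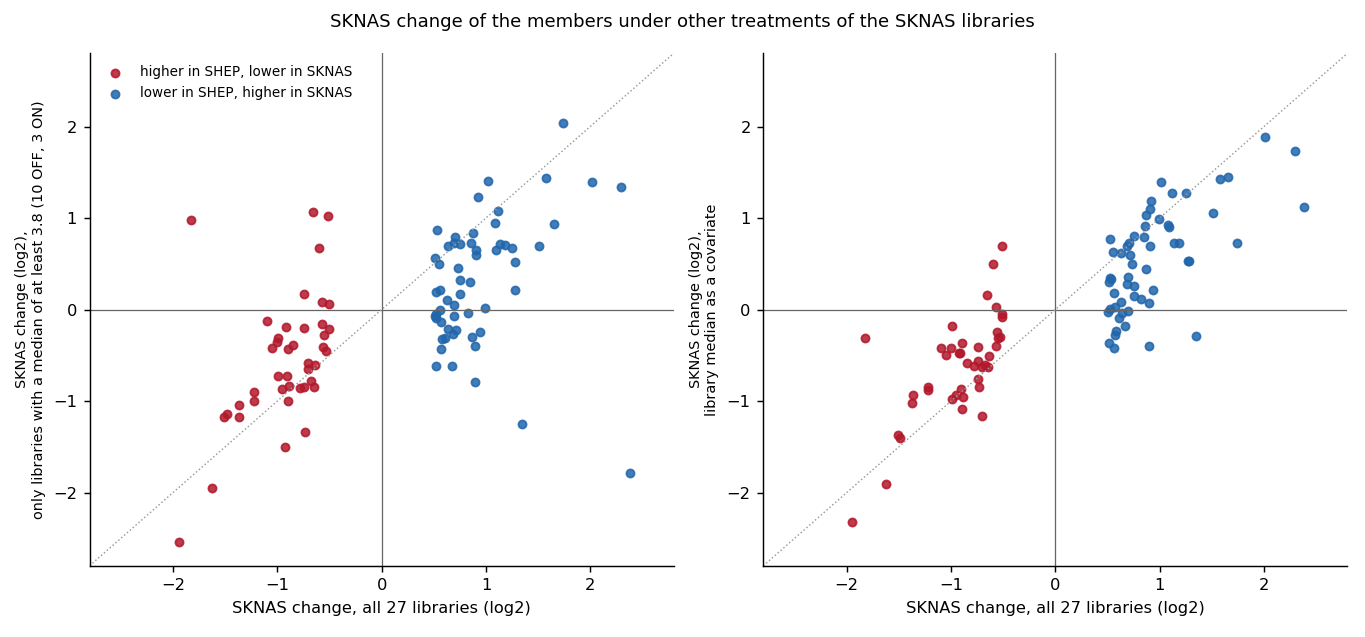
Change of the 99 members in SKNAS over all 27 libraries (horizontal axes, log2) against the change in the high-median libraries alone (left) and with the library median as a covariate (right), with the line of equality dotted. Red points in the area above 0 and blue points in the area below 0 are members whose sign turned, 7 and 21 on the left and 4 and 11 on the right.

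Length, GC content and level of the members are given beside those of all tested genes, with no test. The genes lower in SHEP and higher in SKNAS had a median transcript length of 1902 bases and a median GC content of 60.8%, against 3026 bases and 48.3% over all tested genes, and 29 of 57 were above 60% GC (50.9%, against 14.9% of all). The genes higher in SHEP and lower in SKNAS had medians of 3664 bases and 46.8%. Lengths were found for all 42 and for 56 of 57 members. Within the 21 genes of the former class whose sign turned in the high-median libraries the medians were 1322 bases and 62.2%. For the 17 that kept 0.5 with the covariate, in the high-median libraries and in both SHEP series, they were 2400 bases and 59.8%. The median of the mean TPM was 6.21 in SHEP and 16.2 in SKNAS for the genes higher in SHEP, 14 and 19.4 for the genes lower in SHEP, and 20.8 and 16.8 for all genes. Protein-coding genes made up 36 of 42 and 48 of 57 members (85.7% and 84.2%, against 89.0% of all).

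The level in one line against the other, averaged over both conditions, is not the contrast that chose the members, although the rule set a minimum level in each line. It was tested with limma across all 12306 genes on jointly rescaled log2(TPM + 1). P-values were adjusted by Benjamini-Hochberg, and calls needed 0.05 or less together with a difference of 0.66 or more. Of the genes higher in SHEP MYC-ON, 21 of 42 were higher in SKNAS, where 23.1% of all genes were, and 9 were lower, where 22.6% were. Of the genes lower in SHEP MYC-ON, 28 of 57 were higher in SKNAS and 10 lower. In the high-median SKNAS libraries alone, the 28 came to 18. Among members with a mean of at least 1 TPM in every group, an alternative chosen after seeing the data that leaves out GAS7, TRIM54, SPRY1, TRIB2, NES, ALDOC, MMP9 and 12 others, 15 of 31 and 23 of 49 were higher in SKNAS (23.3% of all such genes) and 6 and 9 were lower (22% of all such genes). The test compares 1 cell line with another, so its p-values measure the spread between libraries taken from 1 line at successive times.

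VGF, a precursor of neuropeptides, had the largest line difference of the members, 7.58 (SE 0.12, limma adjusted p = 5.14e-61), with group medians of 1.56 and 3.22 in SHEP and 673 and 433 in SKNAS. NES followed at 5.22 (SE 0.067, limma adjusted p = 6.55e-67). TRIB2 (3.73), ALDOC (3.41), SPRY1 (3.38), CCDC102A (3.02) and HSPA1A (2.98) were also higher in SKNAS, and RFLNB (-3.89), TMEM158 (-3.88) and ENC1 (-3.18) were lower. DUSP6 was higher in SKNAS by 1.83 (SE 0.11, limma adjusted p = 8.55e-25) and RAP1GAP2 lower by a difference of -1.12. PPM1E, AVEN, H2BC18 and H2AC18 gave differences of -0.04 (SE 0.051), -0.02 (SE 0.059), -0.01 (SE 0.076) and -0.00 (SE 0.54), which did not pass the test. The other members' differences lay between those of RFLNB and VGF.

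Taken per condition, the gap between lines became smaller in MYC-ON for 25 of 42 genes higher in SHEP (59.5%), for 16 of 57 genes lower in SHEP (28.1%) and for 38.4% of all genes. These shares follow in part from the rule together with which line had the higher level, and carry no test. GAS7 had a gap (SKNAS minus SHEP) of 3.86 in MYC-OFF and 0.90 in MYC-ON, and TRIM54 one of 3.34 and 0.52. NES widened from 3.82 to 6.62, and CCDC102A from 2.08 to 3.96. RAP1GAP2, MMP9 and CERK changed the order of the lines, with gaps of 0.30 and -2.57, -2.19 and 0.85, and -1.40 and 0.31.

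Change with culture time within a group was fitted as a slope per 24 h with limma across all genes. A rise or fall in MYC-ON adds to the MYC-ON mean that chose the members, so the direction of these slopes is in part set by the rule and their counts are a description. In SHEP MYC-ON, 21 of the 42 genes higher in MYC-ON rose over the time course and 1 fell, where 26.9% of all genes rose and 30.8% fell. Of the 57 genes lower in SHEP MYC-ON, 25 fell and 5 rose. At CT24 PGF was at 1.55 and 0.87 in the SHEP MYC-ON series and at 1.116 and 0.86 in MYC-OFF, and at CT76 it was at 8.19 and 7.003 against 2.88 and 1.87. PGF had the steepest rise, 0.82 per 24 h (SE 0.077, limma adjusted p = 1.89e-13), followed by DUSP6 at 0.76 (SE 0.10, limma adjusted p = 8.02e-09) and TBC1D8 at 0.49 (SE 0.079, limma adjusted p = 3.64e-07). PPARG rose by 0.25, PRXL2A by 0.30, RAP1GAP2 by 0.32 and SPRY1 by 0.17. GAS7 had no called slope in any group.

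HSPA1A fell by 1.26 per 24 h in SHEP MYC-ON (SE 0.16, limma adjusted p = 2.41e-09) and HSPA1B by 1.06. LFNG fell by 1.14 (SE 0.10, limma adjusted p = 6.18e-14), RPS6KA4, a kinase downstream of ERK and p38, by 0.90, and CBX8 by 0.75. NES fell by 0.39, ENC1 by 0.41 and CERK by 0.52. APOL3, PSMB9, AL353807.5, ITGB4 and SEMA3F, of the same class, rose. The rise of ITGB4, 0.26, turned to a value of -0.08 in series 2 alone, where it did not pass the test.

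In SHEP MYC-OFF fewer members moved with time. Of the genes higher in SHEP MYC-ON, 3 rose (4.27% of all genes did) and 2 fell (3.57% of all), and of the others 3 rose and 3 fell. VGF fell by 0.61 per 24 h (SE 0.13, limma adjusted p = 0.000789) and APOL3 rose by 0.52 (SE 0.10, limma adjusted p = 0.000408). Of these 11 calls 2 were left without series 1. In SKNAS MYC-OFF, PRXL2A was the only member with a called slope, a rise of 0.48 (SE 0.083, limma adjusted p = 0.0127), where 0.0569% of all genes rose and 0.0975% fell. In SKNAS MYC-ON, PTPRR was the only one, with a slope of -0.50 (SE 0.081, limma adjusted p = 0.00306), where 0.0731% rose and 0.171% fell. Neither SKNAS call held on TPM as deposited, with limma adjusted p of 0.458 for PRXL2A and 0.453 for PTPRR. Both held with the library median as a covariate (limma adjusted p of 0.0116 and 0.000332), with a pseudocount of 0.1 and at a minimum of 5 TPM.

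**Figure D5:**
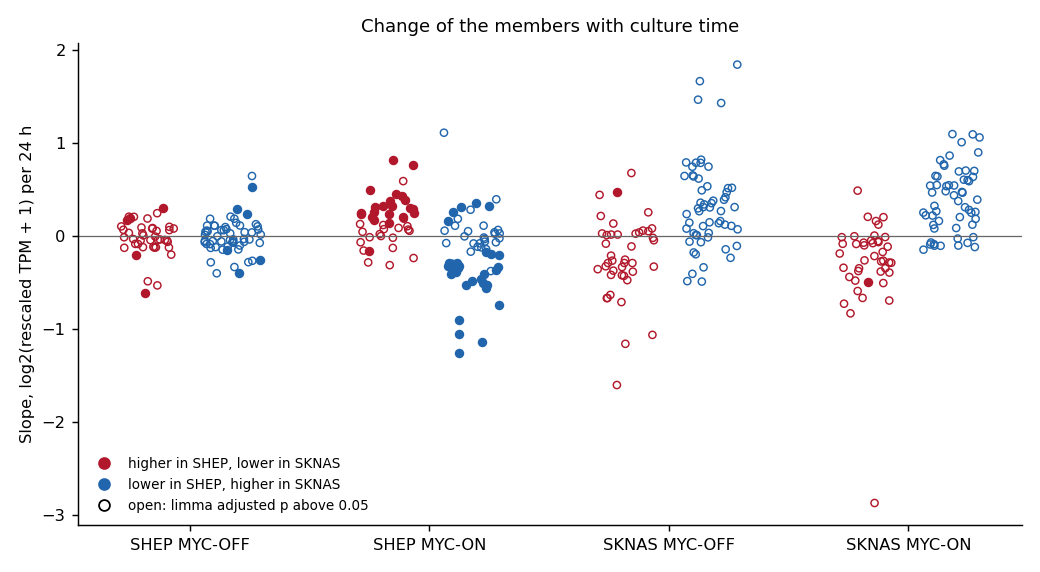
Slope of each of the 99 members with culture time, in log2(rescaled TPM + 1) per 24 h, in the 4 groups, with filled points for a limma adjusted p of at most 0.05. In SHEP MYC-ON most filled red points (genes higher in MYC-ON) lie above 0 and most filled blue points (genes lower in MYC-ON) below it, while SKNAS has 1 filled point per condition.

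No member had a called 24 h rhythm in any group by limma's test of a 24 h cosine and sine at an adjusted p of 0.05. Over all genes 0.0813% were called in SHEP MYC-OFF and 0.00813% with MYC-ON in SHEP, and 0% in either condition of SKNAS. In SKNAS no gene came near the threshold (lowest limma adjusted p of 0.996 in MYC-ON). The test there therefore cannot tell whether a member is rhythmic. The study used another method, which allows a range of periods, and reported oscillating genes in both lines. At an unadjusted p under 0.05, 5 and 1 members of the classes passed in SHEP MYC-OFF (5.35% of all genes), 3 and 8 in SHEP MYC-ON (8.78%), 1 and 1 in SKNAS MYC-OFF (0.642%) and 0 and 1 in SKNAS MYC-ON (0.658%).

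The members made up 0.804% of all tested genes, so a short list is likely to hold none or 1 of them, and nothing is read from these counts. None of the 22 tested MYC targets was a member, and their median changes were 0.83 in SHEP and 1.02 in SKNAS. There was also no member among 14 clock genes (medians 0.69 and 0.87), 29 extracellular matrix genes (-1.07 and -0.99), 22 mesenchymal genes (-0.12 and -0.10), 16 glucocorticoid targets (0.09 and -0.11), 9 genes responsive to estrogen or tamoxifen (-0.34 and -0.04), 13 NF-kB and cytokine genes, 21 TGF-beta genes, 37 cell cycle genes, 30 cholesterol and fatty acid genes, 11 MYC and MAX genes, 30 HOX, SOX and FOX factors, 196 solute carriers, 426 zinc finger genes, 36 G protein-coupled receptor genes or 15 cadherins. Among 1023 antisense, intergenic and host RNAs there were 3 and 4, beside 0.341% and 0.463% of all genes in the classes. The remaining lists held 1 each: DUSP6 among 22 immediate early genes, FGF5 among 24 receptor tyrosine kinases and ligands, ITGB4 among 26 adhesion genes, CRELD2 among 27 stress response genes, CACNB3 among 27 channels, ARHGAP45 among 121 GTPase regulators and H2AC18 among 11 histones. The axon and synapse list (28 tested) held SYT1 and SEMA3F, 1 of each class. The lists are not complete. PGF, a ligand of VEGF receptor 1, was not on the list that held FGF5, and H2BC18 was not on the histone list.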

How the data were processed

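RNA was measured in 83 libraries of SHEP and SKNAS N-MYC-ER cells. The authors quantified reads against Gencode 35 transcripts with Salmon (1.3.0), collapsed them to genes with Tximport (1.12.3) and deposited TPM, which sums to 1000000 in each library, for 60237 genes. Read counts per gene were not used here, so the depth behind each value is unknown, and limma on log2(TPM + 1) took the place of the count test in the study's methods. Other columns of per-sample values numbered 0. A second SKNAS series and U2OS cells were not analysed here.

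TPM was rescaled by median-of-ratios within each line (over both lines together for the line difference). The 12306 genes averaging 1 TPM or more in both lines were fitted with limma 3.58.1 in R 4.3.3, two-sided, with Benjamini-Hochberg adjustment over all of them. The line difference had group and CT as terms, the slope CT within each group, and the rhythm a 24 h cosine and sine beside that slope. Each fit was tested on simulated data first. P-values measure the spread between libraries, which may be technical.

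The members and gene lists were chosen with earlier results of these data known. Every member could be named, and those given in full were the 10 per class with the largest smaller-of-both changes, members on a list and the nearest ones at the threshold. Genes given outside that rule (PTPRR, PPARG, PGF, CERK, TMEM158, VGF and others) were taken for a role or a value after it was seen. SHEP replicate numbers mark series run as separate time courses in which MYC-OFF and MYC-ON deviated together (correlation across genes 0.463). Gene positions, length and GC content are from Gencode 44 on GRCh38, and promoters from RefSeq on GRCh38.p14. The alternatives were TPM as deposited, a pseudocount of 0.1, a minimum of 5 TPM, a change of 1, the library median as a covariate, high-median SKNAS libraries alone, a replicate block, series means, leaving out CT76 or either SHEP series, and, chosen after seeing the data, a mean of at least 1 TPM in every group.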

Additional observations from a re-analysis of the deposited data

Results flagged for a closer look

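In 22 members every SHEP pair of MYC-OFF and MYC-ON libraries taken at the same CT moved one way and every SKNAS pair the other way. Of all 12306 tested genes 0.228% did so. The difference between the lines was not tested, since these changes chose the members and the count restates them. Among the genes higher in SHEP and lower in SKNAS, the change was 1.57 in SHEP and -1.37 in SKNAS for GAS7, 1.45 and -1.36 for RAP1GAP2, 1.15 and -1.63 for TRIM54, 1.15 and -0.90 for PRXL2A, 0.87 and -0.75 for BTG2, 0.70 and -1.49 for PTPRR, 0.76 and -0.65 for HAND2, 0.65 and -0.96 for PPARG and 0.63 and -1.95 for PGF. Among the genes lower in SHEP and higher in SKNAS, it was -1.29 and 1.65 for MMP9, -1.51 and 1.25 for LFNG, -1.81 and 1.09 for NES, -1.01 and 0.92 for ENC1, -1.03 and 0.91 for CCDC102A, -0.88 and 2.01 for TMEM158, -1.13 and 0.87 for SERPINH1 and -1.04 and 0.70 for CERK. The remaining 5 were APOL3 (-1.15 and 0.69), TMEM102 (-0.68 and 1.51), FGF11 (-0.67 and 0.75), HMGA2 (-0.53 and 0.63) and RFLNB (-0.52 and 1.58). The SHEP pairs of both series are 28 and the SKNAS pairs 13, and pairs of neighbouring times in 1 line are not independent of each other.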

How the results depend on the processing

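Membership depended on the processing, and the cause was not tested. The 42 and 57 members (higher and lower in SHEP MYC-ON) became 79 and 28 on TPM as deposited, of which 39 and 25 were also members as reported, 23 and 37 at a minimum of 5 TPM, and 4 and 6 at a change of 1. With a pseudocount of 0.1, 101 were higher in SHEP, and in the high-median SKNAS libraries 27 were lower in SHEP. Leaving out a SHEP series gave 41 to 60 and 58 to 63 members, and without CT76 there were 39 and 54. The line difference kept its counts within 1.5 times, except for the genes lower in SHEP and higher in SKNAS, of which 18 in place of 28 were called in the high-median libraries. Without a SHEP series its calls ran from 21 to 22, 9 to 9, 26 to 33 and 9 to 11. Slope calls in SHEP MYC-OFF went from 11 to 5 and those in SHEP MYC-ON from 52 to 31 at a minimum of 5 TPM, where fewer genes were tested. Without a SHEP series they ran from 2 (series 2 alone) to 13 and from 50 to 56. In SKNAS MYC-OFF the 1 call became 0 on TPM as deposited. In SKNAS MYC-ON the call of PTPRR was also lost there (slope -0.68, limma adjusted p = 0.453) while VGF was called (-1.08, limma adjusted p = 0.00905), and with the library median as a covariate 5 members were called. With SHEP series as a replicate block, slope calls were 13 and 56, the line difference kept 21, 9, 28 and 10 calls and the rhythm 0, so the block changed no count by over 1.5 times.

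These values turned sign. With the library median as a covariate the SKNAS change was 0.16 in AC090971.2, 0.49 in BCL2L2-PABPN1, 0.03 in ARSJ, 0.70 in ABCF2-H2BE1, -0.40 in CHMP1B-AS1, -0.04 in DPP7, -0.09 in NUDT14, -0.01 in ZFAND2B, -0.18 in TYMP, -0.29 in AC087292.1, -0.28 in ISG15, -0.42 in TMEM265, -0.24 in WDR13, -0.36 in SERF2 and -0.03 in AL359091.4. In the high-median SKNAS libraries it was 1.06, 0.67, 0.08, 1.03, -0.79, -0.21, -0.31, -0.07, -0.62, -1.25, -0.43, -0.01, -0.32, -0.62 and -0.07 in those genes, in that order. There it was also 0.17 in H2BC19P, 0.98 in LSM12P1, 0.06 in AC211429.1, -1.79 in RNA5-8SN2, -0.40 in ALKBH7, -0.30 in TMEM191A, -0.04 in MUC1, -0.23 in ITGB4, -0.27 in RN7SL3, -0.14 in ALDH16A1, -0.10 in ARHGAP45, -0.05 in CRELD2 and -0.25 in ANTKMT. The line difference there was 0.35 in LSM12P1, 1.39 in AC090971.2, -0.09 in TYMP, -0.74 in TMEM265, -0.36 in SERF2 and -0.16 in ANTKMT, and with the covariate -0.77 in TMEM265 and -0.00 in SERF2. CHMP1B-AS1 changed by 0.39 in SHEP series 1 and -1.85 in series 2, and the SHEP MYC-ON slope of ITGB4 was 0.60 in series 1 and -0.08 in series 2 (limma adjusted p = 0.601).

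Only 1 SKNAS series was used here, and most of its MYC-ON libraries have a median below 3.8, so condition and library make-up cannot be fully told apart there. TPM carries no read depth, so the counting error of low members such as GAS7, MMP9 and PPM1E is unknown.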
